A study of Homo sapiens with 6 samples.

Results

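Interferon-stimulated genes were examined in LS180, a colorectal adenocarcinoma cell line of human origin, after knockdown of 3 transcripts. A list of 59 such genes was drawn up by symbol. Of these, 37 had a probe set among the 14812 genes named on the array, and each of them had 1 probe set. RIG-I, listed as DDX58, was found under its current symbol RIGI, and the other 36 matched directly. The 22 others, among them MX1, OAS1, OAS2, OAS3, STAT2, IFI6, IFI27, GBP1, GBP2, ADAR, PSMB8, PSMB9, TAP1 and HLA-B, were not analysed here.

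Cells received an siRNA targeting CTNNB1 (beta-catenin, the effector of Wnt signalling), MYC (a growth-promoting transcription factor) or MYU (the long non-coding RNA VPS9D1-AS1), or a control siRNA, and total RNA was hybridised to Affymetrix arrays. There were 6 arrays in 3 pairs, 1 array per knockdown and 1 control array named for each. No group therefore has replicates, no p-value is given, and the words higher and lower describe these arrays only. The control siRNA arrays of the CTNNB1 and MYC pairs both carry the number 1 in their titles and that of the MYU pair the number 2, so the CTNNB1 and MYC pairs may share control material. One tag of the CTNNB1 siRNA array reads CTNNB2, against CTNNB1 in its other labels. CTNNB1 itself was not analysed here, the MYC transcript had log2 differences of -2.38, -1.18 and 0.04 after CTNNB1, MYC and MYU siRNA, and VPS9D1-AS1 had -0.53, -0.24 and -0.50, so it was no lower after its own siRNA than after CTNNB1 siRNA.

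Interferons are secreted when cells sense foreign nucleic acids. They signal through receptors, JAK kinases and STAT factors to a response element in the promoters of many genes, whose products block viral entry, replication and release. Double-stranded RNA, including some siRNAs, can set off this response through the sensors RIG-I, MDA5, PKR and TLR3. The question asked of the list was whether SAMD9 and SAMD9L, which stood out after CTNNB1 knockdown, moved with the other genes of this response. Every control array also came from cells given an siRNA, so a response shared by the control and the targeting siRNA would cancel in a difference.

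SAMD9 and SAMD9L are neighbours on chromosome 7, on the same strand, and encode large cytoplasmic proteins that restrict poxviruses and restrain cell growth. The 250 bases before their starts, and those of 3 other members, are shown because they carry, or lack, the interferon-stimulated response element, the sequence bound by the STAT and IRF complex. It was searched on both strands as GAAA, any 2 bases and GAAA again, and matches are in capitals. All are from RefSeq, build GRCh38.p14, written 5′ to 3′ on the strand of the gene. ISG15 and IFIT1 are shown as classical carriers of the element, and GBP3 as the member second to SAMD9 after CTNNB1 knockdown.
SAMD9 (chr7:93117980-93118229, minus strand): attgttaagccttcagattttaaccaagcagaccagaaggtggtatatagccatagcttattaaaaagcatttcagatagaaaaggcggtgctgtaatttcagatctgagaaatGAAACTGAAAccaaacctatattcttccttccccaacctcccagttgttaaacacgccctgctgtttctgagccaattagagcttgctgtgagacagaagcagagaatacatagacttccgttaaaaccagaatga
SAMD9L (chr7:93148386-93148635, minus strand): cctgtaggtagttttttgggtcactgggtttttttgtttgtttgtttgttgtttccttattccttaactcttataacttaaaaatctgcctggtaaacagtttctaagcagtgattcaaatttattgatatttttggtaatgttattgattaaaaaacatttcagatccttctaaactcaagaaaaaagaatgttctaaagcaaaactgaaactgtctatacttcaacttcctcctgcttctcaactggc
ISG15 (chr1:1013247-1013496, plus strand): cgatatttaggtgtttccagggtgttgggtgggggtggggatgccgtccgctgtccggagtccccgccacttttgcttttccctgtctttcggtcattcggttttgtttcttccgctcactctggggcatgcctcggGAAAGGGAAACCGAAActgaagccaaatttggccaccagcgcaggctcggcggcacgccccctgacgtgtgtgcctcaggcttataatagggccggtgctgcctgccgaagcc
IFIT1 (chr10:89392373-89392622, plus strand): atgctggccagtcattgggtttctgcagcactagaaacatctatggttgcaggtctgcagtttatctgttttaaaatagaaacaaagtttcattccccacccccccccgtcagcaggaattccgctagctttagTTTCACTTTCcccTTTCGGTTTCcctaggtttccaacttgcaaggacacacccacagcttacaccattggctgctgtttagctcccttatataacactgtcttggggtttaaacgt
GBP3 (chr1:89022867-89023116, minus strand): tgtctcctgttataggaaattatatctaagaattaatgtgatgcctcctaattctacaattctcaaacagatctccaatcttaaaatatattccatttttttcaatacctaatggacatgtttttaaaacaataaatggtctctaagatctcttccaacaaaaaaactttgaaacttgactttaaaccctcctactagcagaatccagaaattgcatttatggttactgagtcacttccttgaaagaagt

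SAMD9 had 1 match, whose first base lay 136 bases before the start. SAMD9L had none, although both promoters hold the run AAACTGAAAC, which begins 135 bases before the start of SAMD9 and 47 bases before that of SAMD9L. That run, searched on both strands and chosen after the sequences were seen, was found in 26 of 27305 promoters of this length (0.0952%) and in 6 of the 47 listed members with a promoter in the table. The other 4 were BST2, DDX60, IFI44 and ISG20. The run overlaps the match to the response element in SAMD9. The promoters of SAMD9 and SAMD9L also share the runs ATTTCAGATC, found in 13 of all promoters, and CATTTCAGAT, found in 19, and no other listed member held either.

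Each array's deposited value is the departure from the mean of its pair, so levels are not known and 1 difference per gene and pair remains. The deposited log2 value of SAMD9 was 1.43 on the CTNNB1 siRNA array and -1.43 on its control array. It was 0.48 on the MYC siRNA array and -0.48 on its control, and -0.06 on the MYU siRNA array and 0.06 on its control. SAMD9 was thus higher with CTNNB1 siRNA and with MYC siRNA than on the matched control, and nearly level with MYU siRNA. As knockdown minus control the log2 differences of SAMD9 were 2.87 (7.30-fold higher) after CTNNB1 siRNA, 0.97 (1.95-fold higher) after MYC siRNA and -0.11 after MYU siRNA.

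SAMD9L had a deposited value of 0.96 on the CTNNB1 siRNA array and -0.96 on its control. On the MYC siRNA array it had 0.24, against -0.24 on its control, and on the MYU siRNA array -0.07, against 0.07 on its control. The differences were 1.92 (3.79-fold higher), 0.49 (1.40-fold higher) and -0.15. Both genes were therefore highest after CTNNB1 siRNA, intermediate after MYC siRNA and slightly below 0 after MYU siRNA. Among 14812 genes ordered from the highest difference, SAMD9 stood at place 18 after CTNNB1 siRNA, 73 after MYC siRNA and 11896 after MYU siRNA, and SAMD9L at 73, 556 and 12446. Sets of 3 values are given in this order of the knockdowns, CTNNB1, MYC and MYU.

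**Figure D1:**
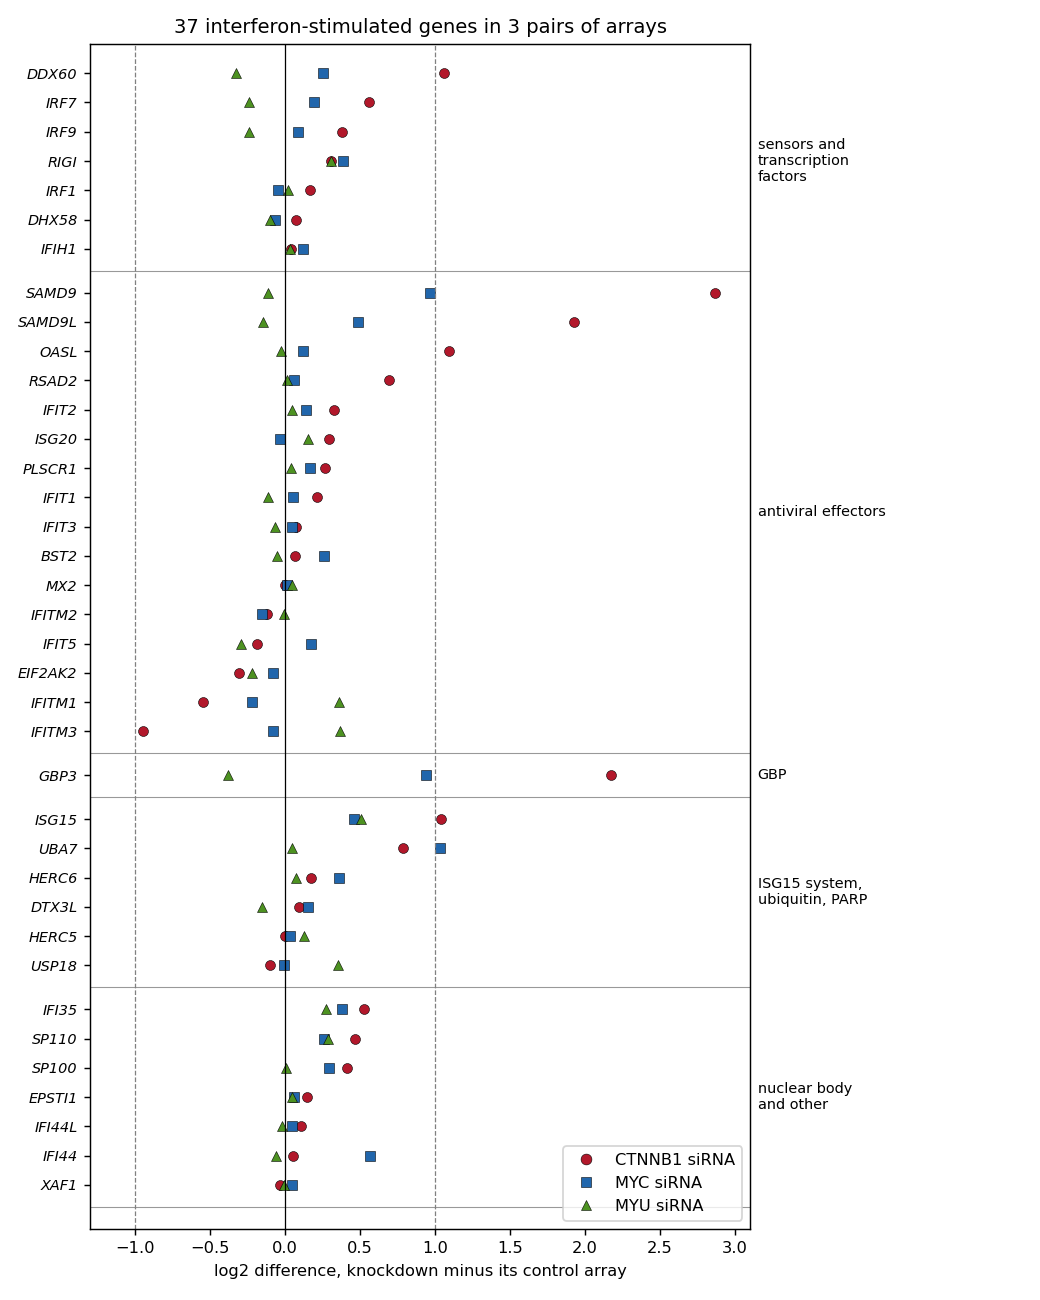
Log2 difference, knockdown minus its control array, of the 37 interferon-stimulated genes with a probe set, grouped by role, with 1 symbol per pair of arrays (circles CTNNB1 siRNA, squares MYC siRNA, triangles MYU siRNA) and dashed lines at a 2-fold difference. SAMD9, GBP3 and SAMD9L lie farthest to the right with CTNNB1 siRNA, at 2.87, 2.17 and 1.92, and 11 of the 37 members lie within 0.2 of 0 in all 3 pairs.

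The question was put about SAMD9 and SAMD9L because they stood out after CTNNB1 knockdown. A smaller shift of the list as a whole was therefore given in advance and is not a result. In the CTNNB1 pair 6 of 37 members were at least 2-fold higher, against a background of 2.80% of all genes, and 0 were 2-fold lower, against 4.14%. These 6 were SAMD9, GBP3, SAMD9L, OASL, DDX60 and ISG15. The median member difference was 0.17, against 0 for all genes, and 28 of 37 members lay above 0, against 48.9% of all genes. Without SAMD9 and SAMD9L, 4 members were 2-fold higher and the median was again 0.17.

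In the MYC pair 1 member, UBA7, was 2-fold higher, against 0.412% of all genes, and 0 were 2-fold lower, against 0.446%. SAMD9 and GBP3 joined it at 1.5-fold, against 2.15% of genes 1.5-fold higher and 3.63% 1.5-fold lower, the latter with 0 members. The median was 0.12, and 29 of 37 members lay above 0, against 48.0% of all genes. In the MYU pair 0 of 37 members were 2-fold higher or lower, against 0.0608% and 0.0945% of all genes, so a count of 0 is near the background. None reached 1.5-fold either, against 0.668% higher and 1.21% lower among all genes, and the median was 0.00.

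The pairs also differ in how widely all genes spread. Over all genes the standard deviation of the differences was 0.51 after CTNNB1 siRNA, 0.28 after MYC siRNA and 0.20 after MYU siRNA. Among the members it was 0.72, 0.30 and 0.21. In the MYU pair the members ran from -0.38 (GBP3) to 0.51 (ISG15), and the central 90% of all genes lay between -0.34 and 0.30. Members within 0.2 of 0 in all 3 pairs numbered 11 of 37 (29.7%), against 48.7% of all genes. They were the RNA helicase genes IFIH1 and DHX58, the transcription factor gene IRF1, IFIT3, IFITM2, MX2, HERC5, DTX3L, IFI44L, EPSTI1 and XAF1. A gene silent on both arrays of a pair would also lie near 0, and without levels the 2 cases cannot be told apart.

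**Figure D2:**
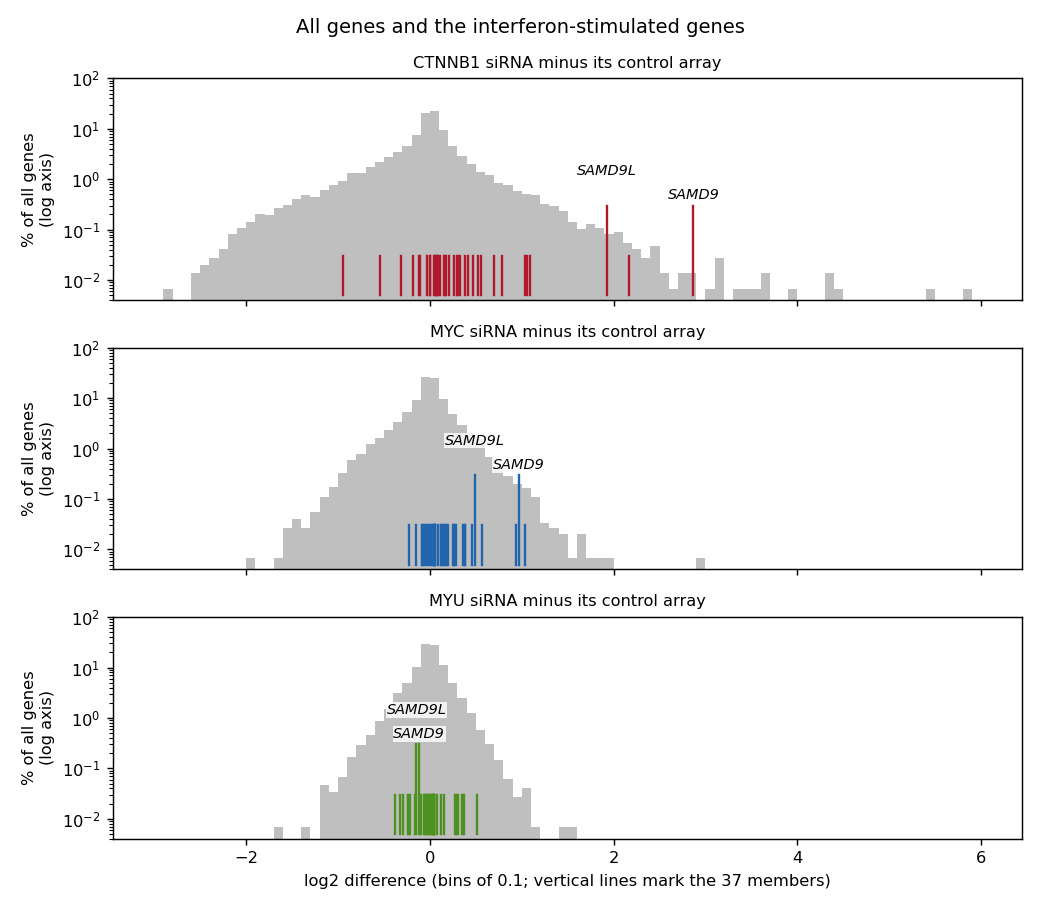
Share of all 14812 genes (grey bars, log axis, bins of 0.1) by log2 difference, knockdown minus control, in each of the 3 pairs, with a coloured line for each of the 37 interferon-stimulated genes and longer lines for SAMD9 and SAMD9L. SAMD9 and SAMD9L lie in the right tail of all genes with CTNNB1 siRNA (2.87 and 1.92) and within the bulk with MYU siRNA (-0.11 and -0.15).

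The sensors and transcription factors that start and carry the response were considered first. Of 7 measured, all lay above 0 in the CTNNB1 pair, with a median of 0.31. DDX60, a helicase-like protein that promotes RIG-I signalling, was the only one 2-fold apart. In that pair 2.80% of all genes were 2-fold higher and 4.14% 2-fold lower. The differences of DDX60 were 1.06, 0.25 and -0.33 after CTNNB1, MYC and MYU siRNA. RIGI, the sensor of short double-stranded RNA ends, had 0.31, 0.39 and 0.31. Its values were alike in all 3 pairs and under 1.5-fold in each. IFIH1, which encodes the long double-stranded RNA sensor MDA5, had 0.04, 0.12 and 0.03, and DHX58, which encodes the related regulator LGP2, had 0.07, -0.07 and -0.10. IRF7, the amplifier of interferon production, had 0.56, 0.19 and -0.24. IRF9, the DNA-binding partner of the STAT dimer, had 0.38, 0.09 and -0.24, while IRF1 had 0.17, -0.04 and 0.02.

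Among 16 measured antiviral effectors, 3 were 2-fold higher in the CTNNB1 pair, against 2.80% of all genes, and the median was 0.14. Apart from SAMD9 and SAMD9L, the third was OASL, a catalytically inactive relative of the oligoadenylate synthetases that enhances RIG-I signalling, at 1.09, 0.12 and -0.03. RSAD2, which encodes viperin, an inhibitor of viral RNA synthesis, was 1.62-fold higher in the CTNNB1 pair (0.70), with 0.06 and 0.01 in the other pairs.

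The IFIT genes encode proteins that bind viral RNA and are among the most inducible in the interferon response. None was 1.5-fold apart in any pair. In the CTNNB1 pair 6.44% of all genes were 1.5-fold higher and 9.80% lower, so 0 in so few genes is near the background. In the CTNNB1 pair IFIT2 had 0.33, IFIT1 0.21, IFIT3 0.07 and IFIT5 -0.19. After MYC siRNA they had 0.14, 0.06, 0.05 and 0.17 in the same order, and after MYU siRNA 0.04, -0.11, -0.07 and -0.29. IFIT1, with a pair of matches to the response element in the sequence above, thus differed far less than SAMD9.

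The IFITM genes encode membrane proteins that hinder the fusion of virus and cell, and all 3 measured lay below 0 in the CTNNB1 pair. IFITM3 was 1.93-fold lower there (-0.95), the lowest of all 37 members and the only member 1.5-fold lower, against 9.80% of all genes. IFITM1 had -0.55 and IFITM2 -0.12. After MYC siRNA these genes had -0.08, -0.22 and -0.15 in the same order, and after MYU siRNA 0.37, 0.36 and -0.01. The neighbouring genes IFITM1 and IFITM3 were therefore below 0 in the pair in which SAMD9 was highest, and above 0 in the pair in which SAMD9 was below it. The IFITM genes are near-identical copies in part of their sequence, so signal may be shared between their probe sets.

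None of the other effectors was 1.5-fold apart in any pair. With 6.44% of all genes 1.5-fold higher and 9.80% lower in the CTNNB1 pair, that too is near the background. EIF2AK2, the gene of the double-stranded RNA-activated kinase PKR, had -0.31, -0.08 and -0.22, and so lay below 0 in all 3 pairs. BST2, which encodes tetherin, had 0.07, 0.26 and -0.05, and ISG20, an exonuclease gene, had 0.29, -0.03 and 0.15. PLSCR1, which encodes a phospholipid scramblase, had 0.27, 0.16 and 0.04. MX2, which encodes a GTPase that blocks nuclear entry of retroviruses, differed by 0.00, 0.01 and 0.05.

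GBP3 was the only measured gene of the guanylate-binding proteins, GTPases that attack intracellular pathogens, within the list. Its deposited value was 1.09 on the CTNNB1 siRNA array and -1.09 on its control, 0.47 on the MYC siRNA array and -0.47 on its control, and -0.19 on the MYU siRNA array and 0.19 on its control. The differences were 2.17 (4.51-fold higher), 0.94 (1.92-fold higher) and -0.38. Of all members GBP3 came nearest to SAMD9 in its values in the CTNNB1 and MYC pairs, at places 44 and 80 among all genes. In the MYU pair it was the lowest member. The family members GBP4 and GBP5, from a further list of interferon-induced genes, had 0.30 and 0.04 after CTNNB1 siRNA, 0.01 and -0.07 after MYC siRNA, and -0.12 and -0.03 after MYU siRNA. GBP3 thus stood apart in size from its 2 measured relatives in the CTNNB1 and MYC pairs.

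ISG15 is a ubiquitin-like protein that is joined to other proteins by UBA7 and HERC5 and removed by USP18. ISG15 was above 0 in all 3 pairs, with 1.04, 0.46 and 0.51, and its value in the MYU pair was the highest of all members there, at place 168 among all genes. UBA7, the activating enzyme, had 0.79 after CTNNB1 siRNA and 1.03 after MYC siRNA, where it was the highest member (2.04-fold), and 0.04 after MYU siRNA. The ligase gene HERC5 had 0.00, 0.03 and 0.13, and USP18 had -0.10, -0.01 and 0.35. UBE2L6, the conjugating enzyme of the same chain, is from the further list and had -0.07, 0.48 and -0.03. The components of the ISG15 system therefore did not share 1 pattern. HERC6 had 0.17, 0.36 and 0.07, and DTX3L, a ubiquitin ligase gene, had 0.09, 0.15 and -0.16.

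In the remaining group of 7 measured genes 0 were 1.5-fold apart in any pair, and with 6.44% of all genes 1.5-fold higher and 9.80% lower in the CTNNB1 pair, a count of 0 in so short a list is near the background. IFI35 had 0.53, 0.38 and 0.27. SP110 and SP100, which encode nuclear body proteins, had 0.47 and 0.42 after CTNNB1 siRNA, 0.26 and 0.29 after MYC siRNA, and 0.28 and 0.00 after MYU siRNA. IFI44 was highest with MYC siRNA, with 0.05, 0.57 and -0.06, and its neighbour IFI44L had 0.11, 0.05 and -0.02. EPSTI1 had 0.15, 0.06 and 0.05, and XAF1, a promoter of apoptosis, had -0.04, 0.05 and 0.00.

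Matches to the response element, as searched here, did not separate members that differed from members that did not. Of 29 measured members with a promoter in the RefSeq table, 16 (55.2%) held a match in the 250 bases before the start. The share was 3.07% of 27305 promoters and 2.57% of the 10736 promoters of measured genes. The remaining measured members, among them OASL and UBA7, had no promoter there and were left out. SAMD9L, which holds the run AAACTGAAAC but not the exact pattern, was counted as without a match. In the CTNNB1 pair the 16 with a match had a median difference of 0.09 and ran from -0.95 to 2.87, with 3 at least 2-fold higher. The 13 without one had a median of 0.38 and ran from -0.31 to 2.17, with 2 at least 2-fold higher. These 2 were GBP3 and SAMD9L, so the comparison of such small counts depends on how SAMD9L is counted. Over all genes 2.80% were 2-fold higher and 4.14% were 2-fold lower in this pair. After MYC siRNA the medians were 0.09 with and 0.26 without a match, and after MYU siRNA 0.01 and 0.00. Of 276 measured genes of any kind with a match, 10 were 2-fold higher and 14 were 2-fold lower in the CTNNB1 pair, with a median of 0. Of 10460 measured genes without a match, 312 were 2-fold higher and 502 were 2-fold lower, which are similar shares.

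**Figure D3:**
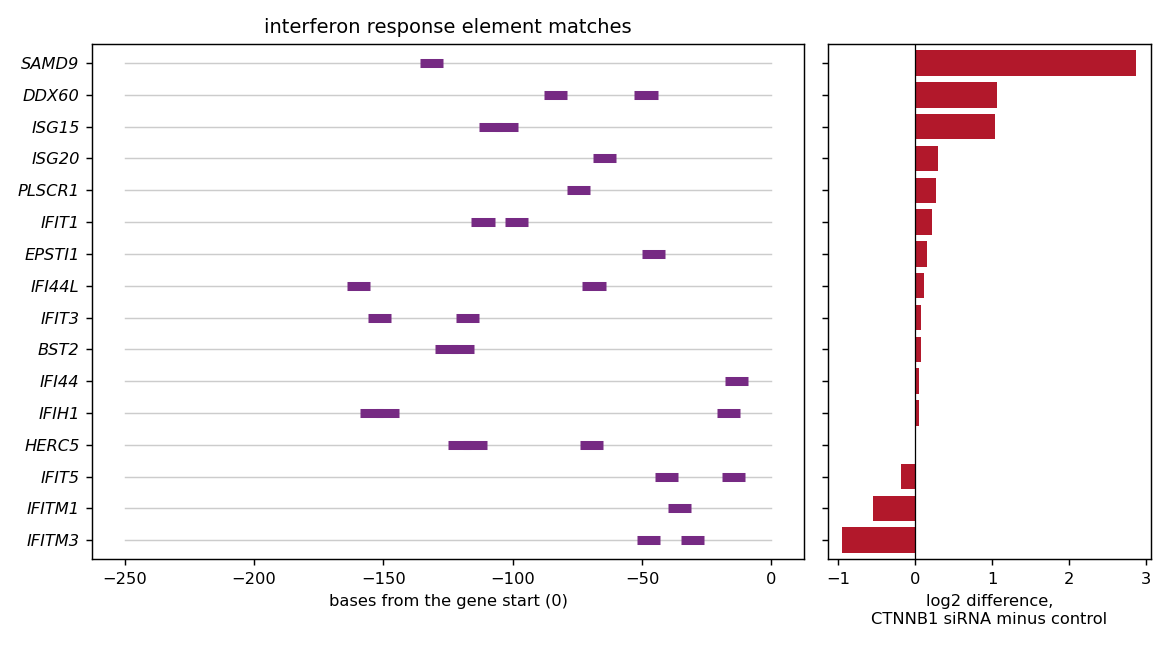
Position of matches to the interferon response element (purple, left, in bases from the gene start) in the 250 bases before the 16 measured members that hold one, and the log2 difference of each gene, CTNNB1 siRNA minus control (bars, right), ordered by that difference. Matches lie before genes at both ends of the order, from SAMD9 at 2.87 to IFITM3 at -0.95.

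Other motifs were counted in the same windows on both strands. The gamma-activated site, searched as TTCNNNGAA, was in 8 of 29 members (27.6%), against 6.78% of all promoters. The E-box CACGTG, a MYC binding motif, was in 4 of 29 (13.8%), against 6.49%. A TCF/LEF motif, CTTTGAA or CTTTGAT, through which beta-catenin acts, was in 1 of 29 (3.45%), against 6.03%. That member was GBP3, and neither SAMD9 nor SAMD9L held any of these 3 motifs. Among the promoters of measured genes alone, 5.9% held the gamma-activated site, 7.93% the E-box and 5.03% the TCF/LEF motif. Matches are a description of these letters only.

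The genes around SAMD9 and SAMD9L were followed next. CDK6, the next protein-coding gene on one side, which encodes a kinase of the G1 phase, was lower in all 3 pairs, with -1.12, -0.91 and -1.17. HEPACAM2, the next on the other side, had -0.78, 0.02 and 0.19. Of 10 measured genes listed for this stretch 0 were 2-fold higher in any pair, against 2.80%, 0.412% and 0.0608% of all genes, so a count of 0 is near the background. CDK6 was the 1 gene of the 10 that was 2-fold lower in the CTNNB1 pair, against 4.14% of all genes, and in the MYU pair, against 0.0945%. The medians were -0.02, 0.01 and 0.03. ANKIB1 was the highest of them at 0.63 after CTNNB1 siRNA, with -0.41 after MYC siRNA, and CDK14 had 0.41 after CTNNB1 siRNA. The adjacent coding genes CDK6 and HEPACAM2 thus lay below 0 in the CTNNB1 pair, in which SAMD9 and SAMD9L were high.

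**Figure D4:**
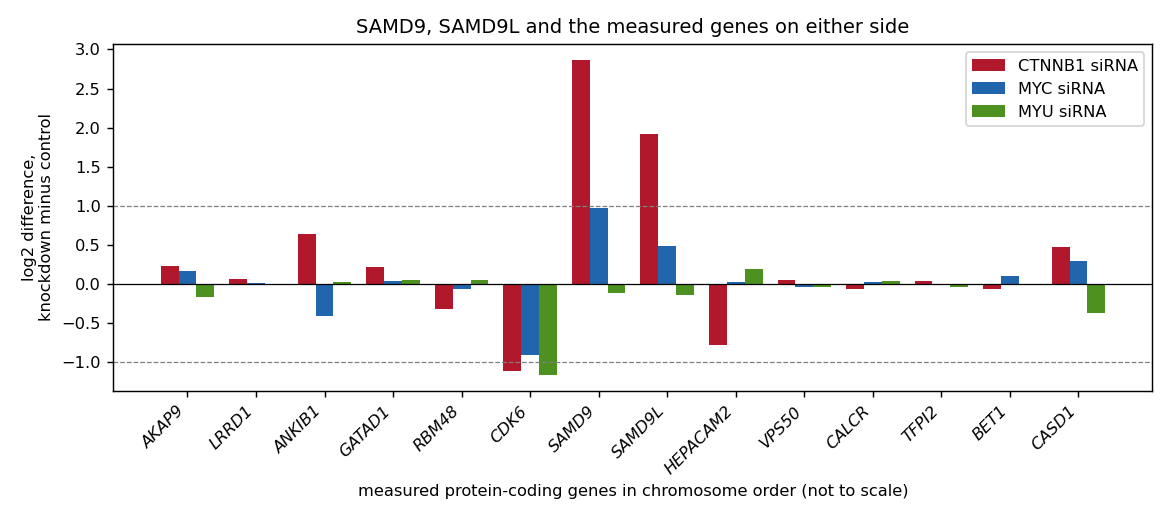
Log2 difference, knockdown minus control, of SAMD9, SAMD9L and the measured protein-coding genes to either side in chromosome order (not to scale), with 1 bar per pair and dashed lines at a 2-fold difference. SAMD9 and SAMD9L are high with CTNNB1 siRNA (2.87 and 1.92) between CDK6 at -1.12 and HEPACAM2 at -0.78.

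Genes upstream in the pathway came from further lists. Of 22 interferon genes 0 had a probe set here. The receptor and kinase list had 6 of 11 measured genes, all above 0 in the CTNNB1 pair with a median of 0.66, of which 4 were at least 1.5-fold higher, against 6.44% of all genes, and 0 were 2-fold higher. The receptor subunit genes of interferon gamma, IFNGR2 and IFNGR1, had 0.98 and 0.85 there, 0.21 and -0.03 after MYC siRNA, and 0.13 and -0.16 after MYU siRNA. The kinase genes JAK2 and JAK1 had 0.67 and 0.64 after CTNNB1 siRNA, 0.11 and 0.48 after MYC siRNA, and -0.25 and -0.23 after MYU siRNA.

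Of 17 measured nucleic acid sensors and transducers 1 was 2-fold higher in the CTNNB1 pair, against 2.80% of all genes. It was MAVS, the adaptor of RIG-I and MDA5, with 1.14, 0.50 and -0.24 in the 3 pairs. TLR3, the endosomal sensor of double-stranded RNA, had 0.97, 0.93 and -0.52, and its adaptor gene TICAM1 had 0.88, -0.13 and 0.19. IRF8 was lower in the CTNNB1 and MYC pairs, with -0.77, -0.71 and -0.06. The median of the list was 0.04, 0.02 and -0.06. In the CTNNB1 pair 4 of the 17 were at least 1.5-fold higher, against 6.44% of all genes, and 1 was lower, against 9.80%. Of the 11 negative regulators 3 were measured. SOCS1, SOCS3 and CISH lay between -0.28 and 0.05 in all 3 pairs.

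A further 35 measured interferon-induced genes outside the list had medians of 0.03, 0.01 and -0.02. In the CTNNB1 pair 1 was 2-fold higher, TRIM25, a ubiquitin ligase that activates RIG-I (1.04), and 2 were 2-fold lower. These were PNPT1, a mitochondrial RNA exonuclease gene (-1.78), and SAMHD1, which encodes a nucleotide hydrolase that starves retroviruses (-1.49). TRIM38 had 0.99, 0.97 and -0.28. In the CTNNB1 pair the share of these 35 genes that was 2-fold higher, 1 of 35, was close to the 2.80% of all genes. The share that was 2-fold lower, 2 of 35, was likewise near the 4.14% of all genes.

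Of the antigen presentation genes within the 59, none had a probe set, and 4 others were measured. B2M, the light chain of class I molecules, had 0.71, 0.56 and 0.21, but its 2 probe sets disagreed, with 0.09 and 1.03 after MYC siRNA. TAPBP, the peptide-loading factor tapasin, had 0.58, 0.79 and 0.23, and its 5 probe sets lay between 0.57 and 0.59 in the CTNNB1 pair. The peptide-trimming protease genes ERAP1 and ERAP2 had -0.10 and 0.19 after CTNNB1 siRNA, 0.31 and 0.30 after MYC siRNA, and -0.24 and -0.26 after MYU siRNA. In the RNA interference machinery XPO5, the exporter of microRNA precursors, was 2-fold lower in the CTNNB1 pair (-1.41), with -0.49 and -0.15 in the others. DGCR8 had -0.46, -0.42 and -0.07, and TARBP2 had -0.19, 0.01 and -0.03.

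**Figure D5:**
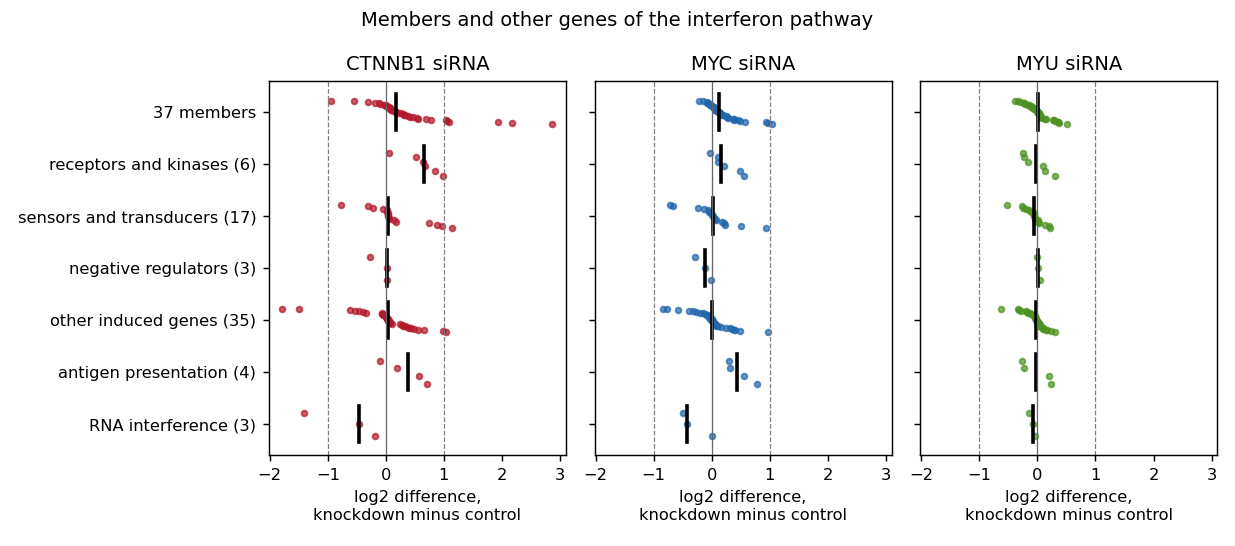
Log2 difference, knockdown minus control, of the 37 members and of 6 further lists of the pathway (rows, number of measured genes in brackets), with 1 point per gene, a black bar at the median and 1 panel per pair. The members reach 2.87 with CTNNB1 siRNA, where the 6 receptors and kinases have the highest median, 0.66, and the medians of all rows lie close to 0 with MYU siRNA.

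Markers of differentiated epithelium and of other cells were set beside these values. Of 8 measured markers of colorectal epithelium 3 were 2-fold higher in the CTNNB1 pair, against 2.80% of all genes, namely KRT20 at 4.39, CEACAM5 at 1.11 and VIL1 at 1.06. EPCAM had 0.62 there, and the transcription factor gene CDX2 was the 1 marker below 0, at -0.42. After MYC siRNA CDX1, CDX2 and KRT8 lay below 0, at -0.40, -0.29 and -0.16. KRT20 had 1.16 after MYC siRNA and -0.73 after MYU siRNA. Of 3 leukocyte markers CD68, a lysosomal protein gene also used outside leukocytes, was higher at 2.65 after CTNNB1 siRNA, and CD14 had -0.03. The lysozyme gene LYZ had -0.23 there and 0.74 after MYU siRNA. In the MYU pair LYZ was the 1 marker of the list 1.5-fold higher, against 0.668% of all genes. Its 2 probe sets disagreed, with 0.14 and 1.34 after MYU siRNA and -0.48 and 0.01 after CTNNB1 siRNA. Among 3 fibroblast markers LUM stood at 2.78, DCN at 0.01 and THY1 at -0.04. The endothelial markers VWF and KDR had 0.02 and 0.04 in that pair. The part of these shifts in the values of SAMD9, SAMD9L and GBP3 was not tested.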

How the data were processed

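Total RNA, prepared with TRIsure, carried a biotin label and was processed by Affymetrix's standard protocol, per the labels. Not given in the sources used here are the background correction, normalization and summarisation. The deposited log2 values of 44629 probe sets had been centred within each pair by the authors, as read from the values, whose sums within a pair are 0 to within 1e-06. Log base 2 is assumed. Levels are lost, so no filter on low values, limma fit or left-out array was possible, and the number of arrays limits the precision.

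Knockdown minus control was computed per probe set. The platform annotation names 15835 probe sets of 14812 genes, and a gene's probe sets were averaged. Old symbols were updated through the RefSeq table of GRCh38.p14. Genes were counted at 2-fold and at 1.5-fold. The text names SAMD9, SAMD9L, every member 1.5-fold apart in any pair, the highest and lowest members and, for each other list, the up to 4 genes with the largest difference; GBP4, GBP5 and UBE2L6 were added for their relation to members, and CDX1, CDX2 and KRT8 as markers below 0, after their values were seen. The members and lists were chosen with earlier results of these data known. The counting was checked on simulated data. Python 3.11.15, numpy 2.4.6, pandas 2.3.3 and matplotlib 3.10.9 were used.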

Additional observations from a re-analysis of the deposited data

How the results depend on the processing

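SAMD9 and SAMD9L were left out of the list in 1 setting. The counts of 2-fold higher members then stayed within 1.5 times, and the medians within the spread between probe sets of a gene. Centring each pair on its median left all counts, medians and the values of SAMD9 and SAMD9L within the same limits. The medians subtracted were only 0.008, 0 and 0, so centring could change almost nothing and says little about stability. Taking the probe set nearest to or farthest from 0 for a gene could change no member, since each has 1 probe set, and says nothing about stability. At 1.5-fold the members counted as lower in the CTNNB1 pair became 1 and those counted as higher in the MYC pair became 3. Split by role, the median moved to 0.31 for sensors and transcription factors in the CTNNB1 pair and to -0.10 in the MYU pair. It moved to 0.26 for nuclear body and other genes and to 0.26 for the ISG15, ubiquitin and PARP group in the MYC pair, and to 0.10 for the latter group in the MYU pair. Each split rests on a smaller list, and the part of list size in these shifts was not tested. GBP genes and antigen presentation had too few measured members for a split. A filter on low values was not run, since the table holds no levels. No paired analysis was possible because each group has 1 array. Single differences have no replicate check.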
